A study of Mus musculus with 12 samples.

Results

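The cytosolic ribosomal protein genes encode the protein part of the ribosome outside mitochondria, and their mRNA was followed here in 3 mouse lymphoid populations. Members were chosen by symbol: Rpl or Rps followed by a number, with an optional a, x, y or l, together with Rplp0, Rplp1, Rplp2 and Rpsa, without the Rps6k kinases and without pseudogenes. The array held 62 such genes on 92 probes. Of these, 55 genes had a probe detected on at least 4 of the 12 arrays and entered the test, 33 of the large subunit and 22 of the small subunit, among 8100 genes tested in all. The other 7 genes, Rpl14, Rpl17, Rpl39l, Rpl6, Rps20, Rps23 and Rpsa, had no probe detected on more than 1 array and are not described further. At the edge of the detection rule, Rps4l was kept with 4 arrays, all of LAK, and the Rpl6 probe was dropped with 1 array. Rps27, Rpl5, Rpl11 and Rpl7 carried no probe under that symbol and were not analysed here.

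RNA was hybridised to Illumina mouse bead arrays, 4 for each group. By their name, DN3 cells are early thymocytes that lack CD4 and CD8. ITNK cells are natural killer-like cells derived in vitro from DN3 cells after deletion of Bcl11b, a transcription factor of the T lineage. LAK cells are natural killer cells that were grown out in IL-2. The mRNA of Cd8b1, a CD8 chain, differed from DN3 by -1.93 in ITNK and -5.75 in LAK (log2). Whether the cells on the DN3 arrays lacked CD8 was not tested. The design asks how ITNK cells compare with their T cell parents and with LAK cells. All 12 labels carry 1 common protocol text and do not assign its steps to groups. In that text, thymocytes or splenocytes of mice with Cre-ERT2, a tamoxifen-activated recombinase, and Bcl11bflox/flox received 1 µM 4-hydroxytamoxifen for 48 h in medium with Flt3 ligand and IL-7. Sorted Bcl11bCKO/CKO and Bcl11bCKO/+ DN3 thymocytes then grew on OP9-DL1 stroma, which presents a Notch ligand, with 100 ng/ml human IL-2, and were taken for RNA at 14 days. For ITNK cells from spleen, the text adds an expansion in IL-2 at 1000 U/ml that lasted 6 to 9 days. Which of these steps the DN3 and LAK cells went through is not given in the labels, which also do not give separate animals or cultures for the arrays of a group, so the spread behind the p-values is that between these arrays and can be technical. The strain labels run C57B6, C57B7 and C57B8 by group and were not used.

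A ribosome joins a small subunit, which reads the mRNA, and a large subunit, which forms the peptide bond, each built of ribosomal RNA and many proteins, and the mRNAs of these proteins are among the most abundant in a growing cell. Many of them begin with a stretch of pyrimidines, the 5′ terminal oligopyrimidine tract, through which the mTORC1 kinase pathway and the protein Larp1 set how strongly they are translated. Activated lymphocytes enlarge and make ribosomes before they divide, and loss of single ribosomal proteins, Rpl22 for example, can block particular steps of T cell development in mice.

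T lineage and natural killer markers differed from DN3 in the direction of the labels. All 10 T lineage markers tested were lower in LAK than in DN3 and 7 were lower in ITNK than in DN3, while all 9 natural killer markers were higher in both LAK and ITNK than in DN3. Between ITNK and LAK, 9 of the 10 T lineage markers were higher in ITNK (median of the 10, 2.74), and 6 of 9 natural killer markers were lower. No DN3 array detected 5 of the natural killer markers, and no LAK array detected 3 of the T lineage markers. These met the detection rule only through other groups, so their differences were in part set by the filter and are a description. The T lineage markers include Bcl11b itself. The 1 erythroid marker tested was higher in ITNK than in DN3 (2.91) and LAK (3.52). The 1 B cell marker was lower in ITNK and LAK than in DN3. Of 2 myeloid markers none passed in ITNK against DN3, and 1 was lower in ITNK than in LAK. Of 15 stromal markers, 10 were tested. None of those 10 was detected on a LAK array, and their summed normalised signal (linear scale) was 212 to 218 on LAK arrays, 1305 to 2011 on ITNK arrays and 1533 to 4825 on DN3 arrays. All 10 were lower in LAK than in DN3, 9 were higher in ITNK than in LAK, and ITNK against DN3 gave 2 higher and 5 lower. The differences of the stromal markers from LAK were likewise in part set by the filter. Beside these marker counts, 28.6% of all genes were higher and 31.9% lower in LAK than in DN3. The shares were 23.5% and 28.2% in ITNK against DN3, and 18.0% and 15.7% in ITNK against LAK. By the array numbers in the titles there were 2 slides: the LAK arrays shared slide 1 with ITNK 1 and 2, and the DN3 arrays shared slide 2 with ITNK 3 and 4. Each array detected 26.1% to 29% of 45274 probes. In such bulk RNA, fewer cells of a type and less RNA per cell cannot be told apart.

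Most ribosomal protein genes, each read from its brightest detected probe, differed little between the populations. The members were far brighter than most genes. Their median was 12.83 to 13.19 (normalised log2 signal) over the arrays, beside 7.09 to 7.12 for all genes tested. No genes of like brightness were set beside them, so the part of signal level in the shares, sizes and spreads below was not tested. Dimmer probes of some members differed more, as given below. In ITNK against DN3, 4 members were higher and 7 lower at an adjusted p under 0.05 (limma, Benjamini-Hochberg over 8100 genes), which is 20% of the 55 where 51.7% of all genes passed (23.5% higher and 28.2% lower). In ITNK against LAK, 2 were higher and 5 lower, or 12.7% against 33.7% of all genes (18.0% higher, 15.7% lower). In LAK against DN3, 13 were higher and 6 lower, or 34.5% against 60.5% of all genes (28.6% higher, 31.9% lower). Thus 33 members passed in none of the 3 comparisons, 60% of the members beside 27.3% of all genes. The counts of the comparisons with LAK include Rpl3l and Rps4l, which met the detection rule only through the groups where they were high. The 4 higher in ITNK against DN3 also include Rps4l, which no array of either group detected. The large and small subunits had similar shares: 18.2% and 22.7% passed in ITNK against DN3, 12.1% and 13.6% in ITNK against LAK, and 33.3% and 36.4% in LAK against DN3.

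The size of the differences was small as well. The median absolute difference of the members was 0.147 (log2) in ITNK against DN3, 0.115 in ITNK against LAK and 0.160 in LAK against DN3, where all genes gave 0.354, 0.240 and 0.435. No member differed by 1 or more (2-fold) in ITNK against DN3, where 13.0% of all genes did. In ITNK against LAK 2 members did, beside 8.95% of all genes, and in LAK against DN3 again 2, beside 20.0%. At 0.5 or more the counts were 2 members beside 36.0% of all genes, 2 beside 23.5% and 7 beside 44.9%. The 2 members past 1 were Rpl3l and Rps4l in both comparisons, each of which was below detection in at least 1 group. The signed median of the members was -0.02, -0.08 and 0.04 in the same order, and that of all genes -0.04, -0.01 and -0.02. Arrays of the 2 groups did not overlap for 15, 9 and 22 of the 55 members, beside 47.8%, 31.8% and 56.4% of all genes. Replicate arrays were also close: the median SD within a group was 0.075 for DN3, 0.132 for ITNK and 0.083 for LAK over the members, and 0.147, 0.184 and 0.177 over all genes.

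**Figure D1:**
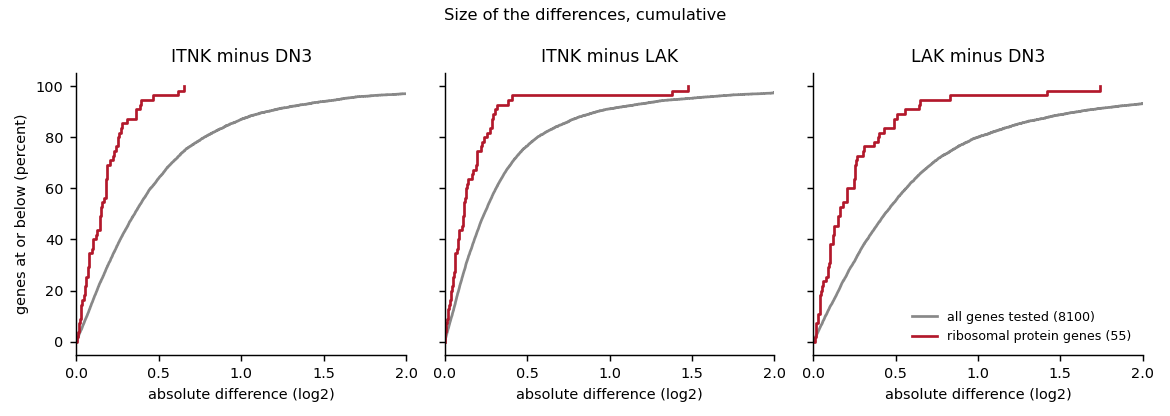
Cumulative share of genes (percent, vertical axis) whose absolute difference (log2, horizontal axis, cut at 2) is at or below a value, for the 55 ribosomal protein genes (red) and all 8100 genes tested (grey), in each comparison. The red curve lies left of the grey one in all 3 panels, with medians of 0.147, 0.115 and 0.160 against 0.354, 0.240 and 0.435.

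The gap between the share of the members and that of all genes depended on the filter and on the scaling. With no detection filter, so that dim probes of all genes entered, 19.4% of the members passed in ITNK against DN3 beside 22.3% of all genes, 12.9% beside 14.2% in ITNK against LAK, and 30.6% beside 29.2% in LAK against DN3. The gap narrowed mainly through the share of all genes, which fell from 51.7%, 33.7% and 60.5% as undetected genes were added. The shares of the members were near those with the filter, 20%, 12.7% and 34.5%. The direction of the members as a group depended on the scaling between arrays. Centring each array on its median in place of quantile normalization gave 14 higher and 3 lower in ITNK against DN3 with a median of 0.13, 2 higher and 10 lower in ITNK against LAK with a median of -0.17, and 29 higher and 3 lower in LAK against DN3 with a median of 0.30. Under that centring 30.9% of the members passed in ITNK against DN3 beside 51% of all genes, 21.8% beside 33.2% in ITNK against LAK, and 58.2% beside 59.5% in LAK against DN3.

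Promoters of 46 of the 55 members were found in the RefSeq table of mouse build GRCm38.p6, as windows from 250 bases before to 50 bases after the annotated start. A run of 8 or more C or T within 25 bases of the start, the place where a terminal oligopyrimidine tract would begin, was present in 23 of 46 (50%), against 22.3% of the 27025 genes of the table. CTTTCC occurred on either strand of the whole window in 52.2% of members and 29.3% of all genes, CCGGAAG, the core bound by ETS factors, in 43.5% and 9.93%, and TATAAA in 13% and 15.7%. CTTTCC ends in CC and CCGGAAG begins with CC, so matches of the first and second motif can overlap at these bases. The 17 members that passed in a comparison and the 29 that passed in none had like shares of the pyrimidine run (52.9% and 48.3%) and of CTTTCC (52.9% and 51.7%), and CCGGAAG was in 35.3% and 48.3%. These matches describe letters only. The 60 bases around the start, 40 before and 20 from it, are given for 4 canonical members (Rps6, Rpl38, Rplp2, Rps9) and for Rpl35, Rpl22 and 4 paralogues that the results turn on, so that the start regions can be set side by side. Capitals mark the longest C or T run in the printed stretch, the first where runs tie.
Rps6 (chr4:86857348-86857407, minus strand): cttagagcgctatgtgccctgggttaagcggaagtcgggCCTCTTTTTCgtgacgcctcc
Rpl38 (chr11:114668540-114668599, plus strand): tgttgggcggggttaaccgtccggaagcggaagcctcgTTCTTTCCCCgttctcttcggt
Rplp2 (chr7:141447611-141447670, plus strand): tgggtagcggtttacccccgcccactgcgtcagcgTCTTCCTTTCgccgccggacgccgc
Rps9 (chr7:3704001-3704060, plus strand): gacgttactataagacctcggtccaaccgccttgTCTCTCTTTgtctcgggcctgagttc
Rpl35 (chr2:39005112-39005171, minus strand): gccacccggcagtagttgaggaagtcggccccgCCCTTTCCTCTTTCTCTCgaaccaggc
Rpl22 (chr4:152324396-152324455, plus strand): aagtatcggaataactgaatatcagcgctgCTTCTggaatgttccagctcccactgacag
Rpl22l1 (chr3:28805468-28805527, plus strand): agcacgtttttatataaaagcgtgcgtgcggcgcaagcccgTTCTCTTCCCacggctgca
Rps27l (chr9:66946046-66946105, plus strand): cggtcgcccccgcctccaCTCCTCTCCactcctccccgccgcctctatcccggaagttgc
Rpl3l (chr17:24727786-24727845, plus strand): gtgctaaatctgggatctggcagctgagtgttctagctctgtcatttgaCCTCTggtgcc
Rpl7l1 (chr17:46782637-46782696, minus strand): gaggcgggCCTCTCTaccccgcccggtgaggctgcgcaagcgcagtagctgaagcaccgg
Rpl35 carried the longest run of these, 18 bases across its start, and Rps6, Rpl38, Rplp2, Rps9 and Rpl22l1 had runs of 9 or 10 bases at the start or a few bases from it. Rpl22 and Rpl3l had no run over 5 bases. Rps27l held 2 runs of 9 bases, which began 22 and 12 bases before the annotated start, and the 7-base run of Rpl7l1 began 32 bases before it. Rpl22, Rps27l and Rpl3l each have 2 annotated start windows, of which 1 is shown.

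Rpl22 fell and its paralogue Rpl22l1 did not fall with it. Rpl22, a large subunit protein that αβ T cell development needs in mice, gave 8.92, 9.00, 8.90 and 8.85 on the DN3 arrays (normalised log2 signal), 8.01, 8.63, 7.97 and 8.44 on the ITNK arrays and 7.91, 8.22, 8.27 and 7.94 on the LAK arrays. Every ITNK and LAK array was below every DN3 array, and ITNK and LAK overlapped. The fall was 0.66 in ITNK (difference -0.66, SE 0.15, adjusted p = 0.0019, limma) and 0.83 in LAK (difference -0.83, SE 0.15, adjusted p = 2.23e-04), while ITNK and LAK differed by 0.17 (adjusted p = 0.397). With slide as a block the differences from DN3 were -0.71 (adjusted p = 0.00704) and -0.94 (adjusted p = 0.0114), and within slide 2 the ITNK fall had an adjusted p of 0.00459. The authors' deposited values gave a smaller fall in ITNK, -0.41 (adjusted p = 0.00801). Both calls held in all other settings run.

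Rpl22l1, whose product can take the place of Rpl22 in the ribosome, lay near the detection limit. It gave 4.87, 5.07, 5.16 and 4.68 in DN3, where it was detected on 2 of 4 arrays, then 5.25, 5.14, 5.13 and 5.49 in ITNK and 5.09, 5.42, 5.34 and 5.65 in LAK, where it was detected on all. The groups overlapped in all 3 comparisons. ITNK exceeded DN3 by 0.31 (SE 0.14, adjusted p = 0.081), which did not pass, and LAK did by 0.43 (SE 0.14, adjusted p = 0.0162). The LAK call did not hold under the slide block (0.54, adjusted p = 0.0976), with median centring (0.25, adjusted p = 0.202) and without LAK 4 or DN3 4, and the value was 0.16 without background correction.

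Rps27l was higher in ITNK than in both other groups. It encodes a paralogue of the small subunit protein Rps27 and is a known p53 target in human and mouse cells. Its values were 12.82, 12.79, 12.59 and 12.81 in DN3, 13.21, 13.21, 13.27 and 13.17 in ITNK, and 12.80, 12.77, 12.76 and 12.90 in LAK. Each ITNK array exceeded each DN3 and LAK array, and DN3 and LAK overlapped. Rps27l rose by 0.46 against DN3 (SE 0.09, adjusted p = 5.06e-04, limma) and was 0.41 above LAK (SE 0.09, adjusted p = 0.00229). The 2 slides gave like values in ITNK: with slide as a block the differences were 0.47 (adjusted p = 0.00303) and 0.40 (adjusted p = 0.0125). Both calls held in all settings run, in size up to 0.74 against DN3 with median centring. LAK and DN3 differed by 0.05 (adjusted p = 0.609), a value that became 0.45 (adjusted p = 0.0011) with median centring, so whether LAK lay above DN3 depended on the scaling.

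Rpl3l, a paralogue of Rpl3 known from heart and skeletal muscle, was detected on every DN3 and ITNK array and on no LAK array. It gave 5.92, 6.17, 6.29 and 5.77 in DN3, 6.18, 6.11, 6.23 and 5.86 in ITNK, and 4.79, 4.49, 4.69 and 4.53 in LAK. DN3 and ITNK overlapped, and both lay wholly above LAK. LAK gives only a bound, the higher on each array of the Rpl3l signal and the dimmest detected probe, and here the Rpl3l signal set it. Rpl3l was at least 2.78-fold higher in ITNK (adjusted p = 8.37e-07, limma) and at least 2.67-fold higher in DN3 (adjusted p = 4.17e-07) than in LAK. DN3 averaged 6.04 ± 0.24, ITNK 6.10 ± 0.17 and LAK 4.62 ± 0.14 as measured (SD, n = 4 each). Both calls held in all settings in which the probe could be tested, with the slide block included (adjusted p = 1.73e-05 and 2.02e-04). As Rpl3l entered the test through detection in DN3 and ITNK alone, its difference from LAK was in part set by the filter and is given as a description. The stromal markers and the T lineage markers moved with it, all of them lower in LAK than in DN3, and their part in the result was not tested. Between ITNK and DN3, Rpl3l differed by 0.06 (SE 0.13, adjusted p = 0.724), where 5 of the 10 stromal markers were lower in ITNK and 2 higher. Its canonical counterpart Rpl3, which lines the peptidyl transferase centre, gave 13.35, 13.26, 13.42 and 13.38 in DN3, 13.05, 13.11, 13.13 and 13.08 in ITNK, and 13.02, 13.15, 13.27 and 13.15 in LAK. It was lower in ITNK than in DN3 on every array (-0.26, SE 0.09, adjusted p = 0.0212), a call that ended under the slide block (-0.25, adjusted p = 0.0704), within slide 2 (adjusted p = 0.0919), with median centring (-0.03) and without DN3 3 or DN3 4. In LAK against DN3 it missed the threshold, and it passed there in 6 other settings, with differences of -0.21 to -0.18.

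Rps4l showed the opposite pattern, with detection on all 4 LAK arrays and on no other. It is named for its likeness to Rps4x, a small subunit protein. LAK arrays gave 6.21, 6.15, 5.83 and 6.36, ITNK arrays 4.94, 4.82, 4.67 and 4.60, and DN3 arrays 4.45, 4.38, 4.38 and 4.37. All LAK arrays stood above all others. Rps4l was at least 2.605-fold higher in LAK than in ITNK (adjusted p = 6e-07, limma) and at least 3.2-fold higher than in DN3 (adjusted p = 1.75e-08). DN3 averaged 4.40 ± 0.04, ITNK 4.76 ± 0.15 and LAK 6.14 ± 0.22 as measured (SD, n = 4 each). The gene's own values set the bound in ITNK. Both calls held in all settings in which the probe could be tested, the slide block among them (adjusted p = 1.76e-05 and 4.89e-05). Rps4l entered the test through detection in LAK alone, so these differences too were in part set by the filter and are a description. The natural killer markers were higher in LAK too, and 6 of 9 were lower in ITNK than in LAK. Their relation to Rps4l was not tested. Rps4l also passed in ITNK against DN3 (0.36, adjusted p = 0.0193), but as no array of either group detected it, no fold is given, and the call was lost with slide as a block, within slide 2, with median centring and cyclic loess and without ITNK 1. Rps4x itself passed in none of the comparisons: 14.55, 14.61, 14.47 and 14.59 in DN3, 14.35, 14.40, 14.42 and 14.57 in ITNK, and 14.35, 14.42, 14.47 and 14.46 in LAK.

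Rpl7l1, a paralogue of Rpl7, was highest in LAK. DN3 arrays gave 8.25, 8.31, 8.11 and 8.04, ITNK arrays 8.35, 8.29, 8.37 and 8.44, and LAK arrays 8.62, 8.65, 8.59 and 8.82. The LAK arrays did not overlap either other group, while DN3 and ITNK overlapped. LAK exceeded DN3 by 0.49 (SE 0.09, adjusted p = 4.22e-04, limma; blocked 0.57, adjusted p = 0.0121), and ITNK was below LAK by 0.31 (difference -0.31, SE 0.09, adjusted p = 0.0208; blocked -0.35, adjusted p = 0.0361). Within slide 1 alone the latter had an adjusted p of 0.0814, and it was also lost without LAK 4 or ITNK 2. ITNK and DN3 differed by 0.18 (adjusted p = 0.116), which passed with the authors' deposited values (adjusted p = 0.0319). For the pair Rpl39 and Rpl39l, Rpl39l was not detected, and Rpl39, a small protein at the exit tunnel, passed in no comparison, with values of 13.13 to 13.68 over the 12 arrays.

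**Figure D2:**
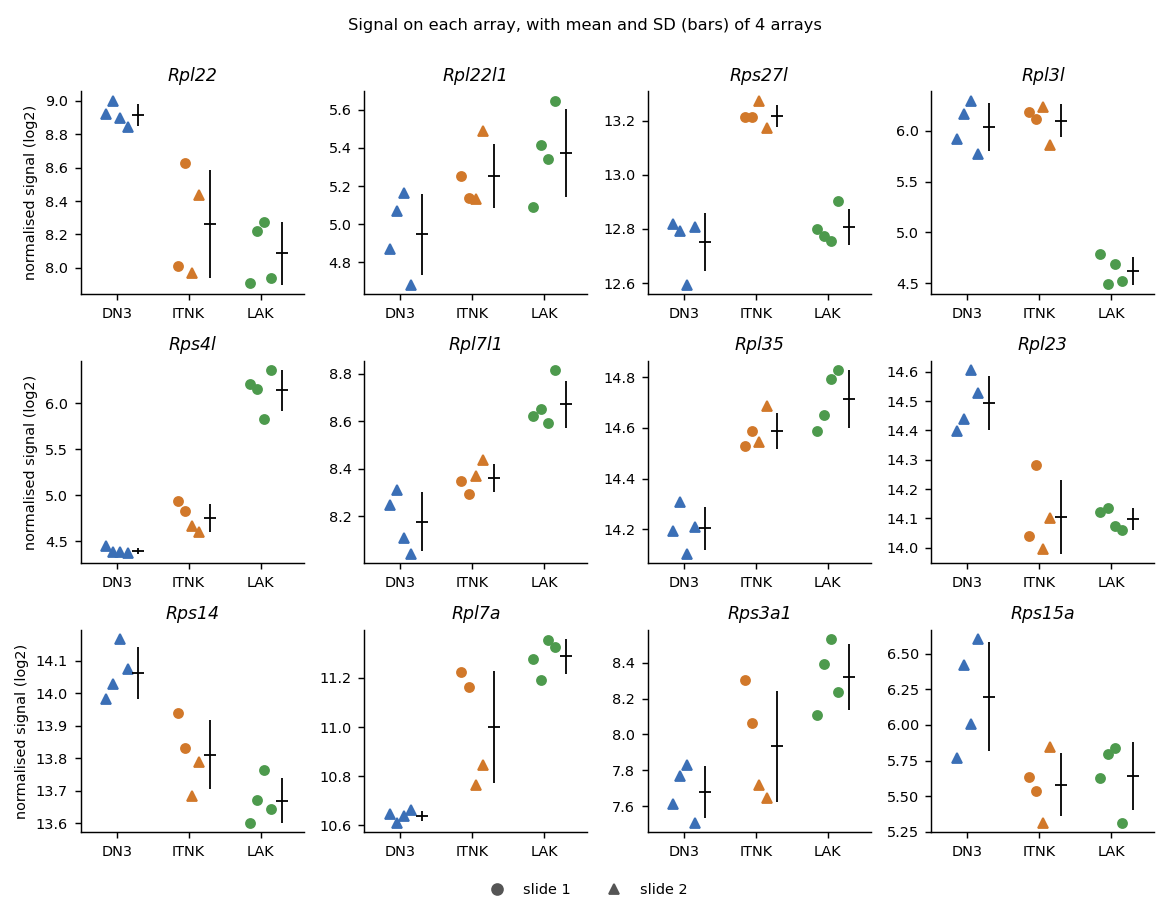
Normalised log2 signal (vertical axis, its range set for each gene) of 12 ribosomal protein genes on each array of DN3, ITNK and LAK, with the mean and SD of 4 arrays as a black bar and the slide by symbol. Rpl22 lies lower in ITNK and LAK than in DN3, Rps27l is highest in ITNK, Rpl3l is low in LAK and Rps4l high in LAK, and ITNK arrays of Rpl7a and Rps3a1 part by slide.

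Among the other large subunit members, Rpl35 rose and Rpl23 fell relative to DN3. Rpl35, which sits at the mouth of the exit tunnel, gave 14.19, 14.31, 14.10 and 14.21 in DN3, 14.53, 14.59, 14.55 and 14.69 in ITNK, and 14.59, 14.65, 14.79 and 14.83 in LAK. All ITNK and LAK arrays were above all DN3 arrays. The rise was 0.38 in ITNK (SE 0.09, adjusted p = 0.00301, limma; blocked 0.41, adjusted p = 0.00891) and 0.51 in LAK (SE 0.09, adjusted p = 2.51e-04; blocked 0.57, adjusted p = 0.0114). The LAK call held in all settings, and the ITNK call was lost with cyclic loess (0.21, adjusted p = 0.0653). Rpl23, a protein of the subunit interface whose human form binds the p53 regulator MDM2, gave 14.40, 14.44, 14.61 and 14.53 in DN3, 14.04, 14.28, 13.99 and 14.10 in ITNK, and 14.12, 14.13, 14.07 and 14.06 in LAK. The DN3 arrays lay above all others. Its brightest probe was lower by 0.39 in ITNK (difference -0.39, SE 0.09, adjusted p = 0.00283; blocked -0.45, adjusted p = 0.00518) and by 0.40 in LAK (difference -0.40, SE 0.09, adjusted p = 0.00192; blocked -0.51, adjusted p = 0.0189). Its other detected probes disagreed in part: the second gave -0.27 and -0.05, and the dimmest 0.11 and 0.04. With the mean of its probes neither call of Rpl23 held (-0.18, adjusted p = 0.14, and -0.14, adjusted p = 0.252), and median centring ended the LAK call (-0.22, adjusted p = 0.111).

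Other large subunit members moved with the slide or the scaling. Rpl7a, a protein of the 60S surface, gave 10.65, 10.61, 10.64 and 10.66 in DN3, 11.28, 11.19, 11.36 and 11.33 in LAK, and 11.22, 11.16, 10.76 and 10.85 in ITNK. The first 2 ITNK arrays, on slide 1, were near LAK and the other 2, on slide 2, nearer DN3. ITNK exceeded DN3 by 0.36 (SE 0.11, adjusted p = 0.0129) and LAK did by 0.65 (SE 0.11, adjusted p = 1.46e-04). The slide block reduced these to 0.17 (adjusted p = 0.174) and 0.26 (adjusted p = 0.142). ITNK against LAK missed the threshold (-0.29) and passed in 5 other settings (adjusted p = 0.0275 to 0.0477). Rpl29 gave 0.37 in LAK against DN3 (adjusted p = 0.00739) and 0.06 with the block, and -0.29 in ITNK against LAK (adjusted p = 0.0449) and -0.14 with the block. The latter call was also lost within slide 1, with the replicate block, with only the arrays of both groups, and without any LAK array, ITNK 3 or 4, or DN3 1, 2 or 4. Against DN3, ITNK gave 0.08, and 0.41 with median centring (adjusted p = 0.00496). Rpl26, which binds p53 mRNA in human cells, gave 11.12, 11.21, 11.39 and 11.23 in DN3, 11.67, 11.71, 11.34 and 11.32 in ITNK, and 11.67, 11.74, 11.81 and 11.69 in LAK. LAK exceeded DN3 by 0.49 (adjusted p = 0.00161), and with the block by 0.13 (adjusted p = 0.529). Rpl4 (0.31, adjusted p = 0.00607) lost its call in LAK against DN3 with the block (0.35, adjusted p = 0.0728), as did Rpl32 (0.30, adjusted p = 0.0455; blocked -0.14, adjusted p = 0.47), whose call was also lost with no detection filter, with the dimmest probe, with the replicate block and without any 1 of 7 arrays, among them all 4 of LAK and DN3 1, 2 and 4. Rpl27a, lower by 0.24 in ITNK than in DN3 (difference -0.24, adjusted p = 0.0324), held with the block (-0.29, adjusted p = 0.0349) and was lost in 8 of 13 other settings and without ITNK 1, 3 or 4 or DN3 2 or 3. Its dimmer detected probes went the other way there (0.13 and 0.16), and neither passed. In LAK against DN3 its second probe was higher by 0.39 (adjusted p = 0.00241, limma over all detected probes), where the brightest gave -0.15. Rpl13a, a protein that silences inflammatory mRNAs in human monocytes, gave 0.22 and 0.26 against DN3 in ITNK and LAK (adjusted p = 0.127 and 0.0682). Rpl10a, of the L1 stalk, gave -0.02 and 0.09, and Rpl38, which mouse embryos need for translation of Hox mRNAs, 0.08 and 0.13, and none of these passed as processed. Rpl13a passed with median centring in ITNK (0.41, adjusted p = 0.00965) and LAK (0.44, adjusted p = 0.00541), and with the authors' deposited values in both (adjusted p = 0.025 and 0.00819). In LAK against DN3 Rpl13a also passed without background correction (adjusted p = 0.0426), and Rpl10a passed with median centring (0.35, adjusted p = 0.00954) and with the authors' deposited values (adjusted p = 0.0479). Rpl38 passed with the mean of its probes, at 0.48 in ITNK (adjusted p = 5.1e-04) and 0.72 in LAK (adjusted p = 1.06e-05). Between ITNK and LAK, Rpl38 passed with its dimmest probe (-0.42, adjusted p = 0.0398, limma), where the brightest gave -0.05.

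The stalk that recruits elongation factors is built from Rplp0, Rplp1 and Rplp2, and none of the 3 passed in a comparison as processed. Rplp0 gave 8.44, 8.73, 8.32 and 8.33 in DN3, 8.27, 8.48, 8.30 and 8.49 in ITNK, and 8.35, 8.46, 8.74 and 8.44 in LAK, with full overlap of the groups. Rplp2 gave 13.92, 13.94, 14.05 and 13.89 in DN3, 13.92, 13.86, 13.73 and 13.73 in ITNK, and 13.68, 13.81, 13.81 and 13.83 in LAK, all of the latter below DN3 (-0.16, adjusted p = 0.121). In ITNK against DN3 Rplp2 passed with cyclic loess (-0.31, adjusted p = 0.0215) and with the authors' deposited values (-0.26, adjusted p = 0.036), and in LAK against DN3 without background correction (-0.17, adjusted p = 0.0393). Rplp1 was bounded by the method: it was the brightest probe of 9 of the 12 arrays, so quantile normalization gave it the same value, 15.34, on all ITNK and LAK arrays and on DN3 3, and 15.16, 15.16 and 14.90 on the other DN3 arrays. Its scanner signal before normalization was 26521 to 32505 on DN3 arrays, 42944 to 46914 on ITNK arrays and 46089 to 49788 on LAK arrays, not scaled between arrays. Against DN3, Rplp1 passed with median centring in ITNK (0.29, adjusted p = 0.0489) and LAK (0.30, adjusted p = 0.0385), and without background correction (adjusted p = 0.0417 and 0.0356). Differences of Rplp1 between ITNK and LAK could therefore not be seen on the normalised scale. Rpl41, which ranked 2 to 5 by scanner signal over the arrays, likewise had 1 value, 15.16, on all 4 ITNK arrays. The part of such rank limits in the values of other bright members was not tested.

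Among small subunit members, Rps14 and Rps9 were lower relative to DN3 and Rps15a fell on a dim probe. Rps14, the protein whose loss underlies the anaemia of human 5q- syndrome, gave 13.98, 14.03, 14.17 and 14.07 in DN3, 13.94, 13.83, 13.68 and 13.79 in ITNK, and 13.60, 13.67, 13.76 and 13.64 in LAK. DN3 lay above both other groups on every array, and ITNK overlapped LAK. The difference was -0.25 in ITNK (SE 0.09, adjusted p = 0.03, limma; blocked -0.33, adjusted p = 0.0208) and -0.39 in LAK (SE 0.09, adjusted p = 0.00171; blocked -0.54, adjusted p = 0.00985). With median centring they were -0.14 (adjusted p = 0.289) and -0.15 (adjusted p = 0.236), and the ITNK call was also lost with the replicate block (adjusted p = 0.0626) and without ITNK 3, ITNK 4, DN3 3 or DN3 4. Rps9, at the mRNA entry channel, gave 14.42, 14.46, 14.40 and 14.40 in DN3, 14.03, 14.09, 14.17 and 14.28 in ITNK, and 14.28, 14.15, 14.12 and 14.13 in LAK. DN3 again stood above all other arrays, and the difference from it was -0.28 in ITNK (adjusted p = 0.0162; blocked -0.19, adjusted p = 0.123) and -0.25 in LAK (adjusted p = 0.0243; blocked -0.08, adjusted p = 0.669). Median centring (-0.16 and -0.05) and the dimmest probe (-0.15 and -0.09) ended both calls, as did slide 2 alone for ITNK (adjusted p = 0.16). The LAK call was also lost with the authors' deposited values (adjusted p = 0.0964), the mean of probes (adjusted p = 0.0847), the replicate block (adjusted p = 0.0526) and without LAK 2, 3 or 4 or DN3 2. Rps15a gave 5.77, 6.42, 6.00 and 6.60 in DN3, 5.63, 5.54, 5.31 and 5.84 in ITNK, and 5.63, 5.80, 5.84 and 5.31 in LAK. Its groups overlapped. The differences from DN3 were -0.62 in ITNK (adjusted p = 0.0112; blocked -0.62, adjusted p = 0.0458) and -0.56 in LAK (adjusted p = 0.0164; blocked -0.56, adjusted p = 0.194), and without background correction -0.30 and -0.28. The ITNK call of Rps15a was lost within slide 2 (adjusted p = 0.0734), and the LAK call without LAK 4, DN3 2 or DN3 4.

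Further small subunit members were higher in LAK than in DN3, mostly without holding under the slide block. Rps3a1 gave 7.61, 7.77, 7.83 and 7.50 in DN3, 8.31, 8.07, 7.72 and 7.65 in ITNK, and 8.11, 8.40, 8.53 and 8.24 in LAK. LAK lay above DN3 on every array, by 0.64 (SE 0.15, adjusted p = 0.00191), and by 0.14 (adjusted p = 0.617) with the block. In ITNK against LAK it missed the threshold (-0.39) and passed with median centring (adjusted p = 0.0386) and without background correction (adjusted p = 0.0494). Rps7, whose human form binds MDM2, gave 0.25 (adjusted p = 0.0247) and 0.44 with the block (adjusted p = 0.0227), a call lost with cyclic loess, with the replicate block and without LAK 1, LAK 4 or DN3 4. Rps15 gave 0.25 (adjusted p = 0.0208) and 0.19 with the block (adjusted p = 0.321), and Rps12 0.25 (adjusted p = 0.0183) and 0.16 (adjusted p = 0.369). The Rps15 call was lost without LAK 4 or DN3 1, and the Rps12 call with cyclic loess, the mean of probes, the dimmest probe and without DN3 4. Rps15 was also lower in ITNK than in LAK (-0.25, adjusted p = 0.0353; blocked -0.22, adjusted p = 0.13), as was Rpl4 of the large subunit (-0.24, adjusted p = 0.0435; blocked -0.26, adjusted p = 0.0795). Of the 12 fits that left out 1 array, Rps15 kept that call in 6 and Rpl4 in 1, and both lost it within slide 1, with the replicate block and with only the arrays of both groups. Rps15 lost it with the authors' deposited values too (adjusted p = 0.0507), and Rpl4 with median centring and with the dimmest probe. Rps6, the substrate of the S6 kinases, passed in no comparison as processed, with values of 13.42 to 13.55 in DN3, 13.17 to 13.57 in ITNK and 13.42 to 13.60 in LAK. With median centring it passed in LAK against DN3 (0.31, adjusted p = 0.0372). Rps19, mutated in Diamond-Blackfan anaemia, differed from DN3 by 0.06 in ITNK and 0.04 in LAK, and Rps3, a protein of the mRNA entry site, by -0.05 and 0.18, none of which passed as processed. Rps19 passed with the mean of its probes (adjusted p = 0.0154 and 0.00248), 1 of which no DN3 array detected. Rps3 passed in LAK with median centring (0.60, adjusted p = 2.87e-04), cyclic loess (0.33, adjusted p = 0.0199) and the mean of its probes (0.41, adjusted p = 0.00595), and in ITNK with median centring (0.28, adjusted p = 0.0433). Between ITNK and LAK, Rps3 missed the threshold as processed (-0.23). It passed there with the mean of its probes (-0.37, adjusted p = 0.0202, limma), the dimmest probe (-0.52, adjusted p = 0.00949) and median centring (-0.31, adjusted p = 0.0383).

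**Figure D3:**
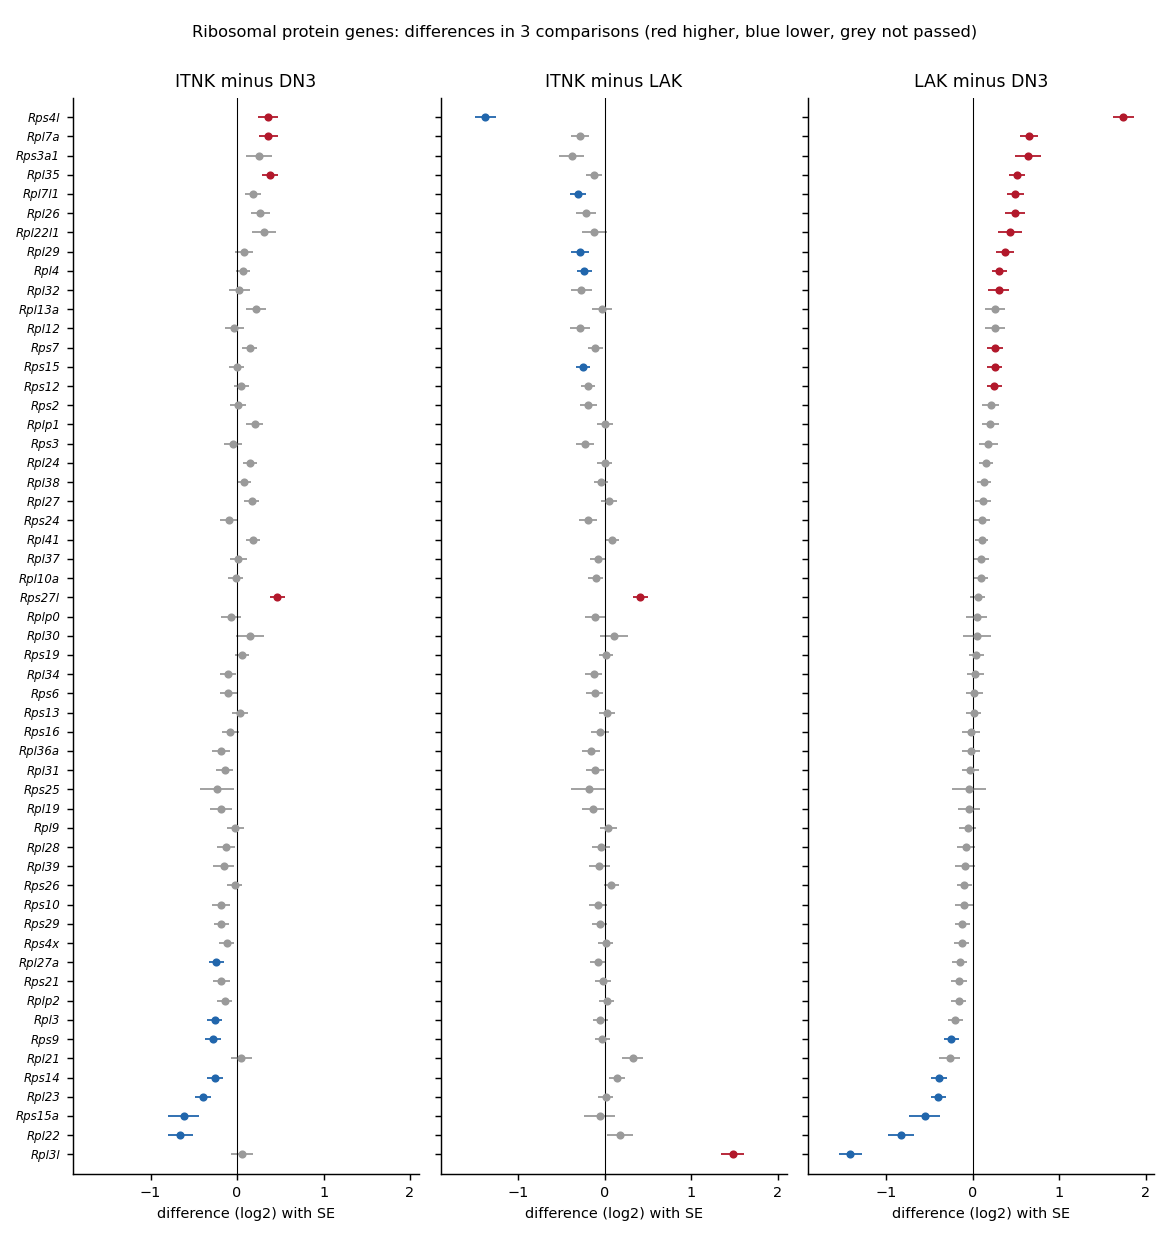
Difference (log2, horizontal axis) with its standard error for each of the 55 genes, ordered by LAK minus DN3, in the 3 comparisons. Red and blue points are higher and lower at an adjusted p under 0.05 and grey points did not pass. Apart from Rps4l and Rpl3l all differences lie within 1 log2 unit.

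Within ITNK, these genes differed between the arrays of the 2 slides. The median over the 55 members was 13.19 and 13.14 on ITNK 1 and 2, of slide 1, and 12.83 and 12.86 on ITNK 3 and 4, of slide 2, while DN3 arrays ranged from 13.05 to 13.14 and LAK arrays from 13.02 to 13.15. Both slide 1 arrays exceeded both slide 2 arrays for 27 of 55 members (49.1%), beside 19.3% of all genes, and the reverse held for 10 members (18.2%), beside 21.6%. The labels do not say whether ITNK 1 and 2 also differed from ITNK 3 and 4 in their cells, so slide and sample cannot be told apart here. With slide as a block, 2 members were higher and 10 lower in ITNK against DN3 (44.4% of all genes passed), 2 and 2 in ITNK against LAK (27.7%), and 4 and 5 in LAK against DN3 (41%), the last with a median of -0.08 in place of 0.04. Of the 13 members higher in LAK than in DN3, 4 held with the block, Rps4l, Rpl35, Rpl7l1 and Rps7, and of the 6 lower, Rpl22, Rpl23, Rpl3l and Rps14 held. LAK and DN3 share no slide, so the blocked value of that comparison runs through the ITNK arrays. Within single slides, ITNK against DN3 gave 3 higher and 7 lower on slide 2 (45.3% of all genes passed), and ITNK against LAK 2 higher and 1 lower on slide 1 (22.9%).

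Before normalization the members took a share of the total scanner signal that was highest in LAK. The 75 detected probes of the members gave 6.58%, 6.77%, 6.70% and 6.43% on DN3 arrays, 6.95%, 6.996%, 6.69% and 6.84% on ITNK arrays, and 6.94%, 7.37%, 7.60% and 7.49% on LAK arrays. The LAK arrays lay above all DN3 arrays, ITNK overlapped both, and the lowest LAK array was within the ITNK range. Within ITNK, both arrays of slide 1 (6.95% and 6.996%) exceeded both arrays of slide 2 (6.69% and 6.84%). As LAK was only on slide 1 and DN3 only on slide 2, group and slide cannot be told apart in their shares. These shares include background signal and differ in scale from the normalised medians, which do not share this order.

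**Figure D4:**
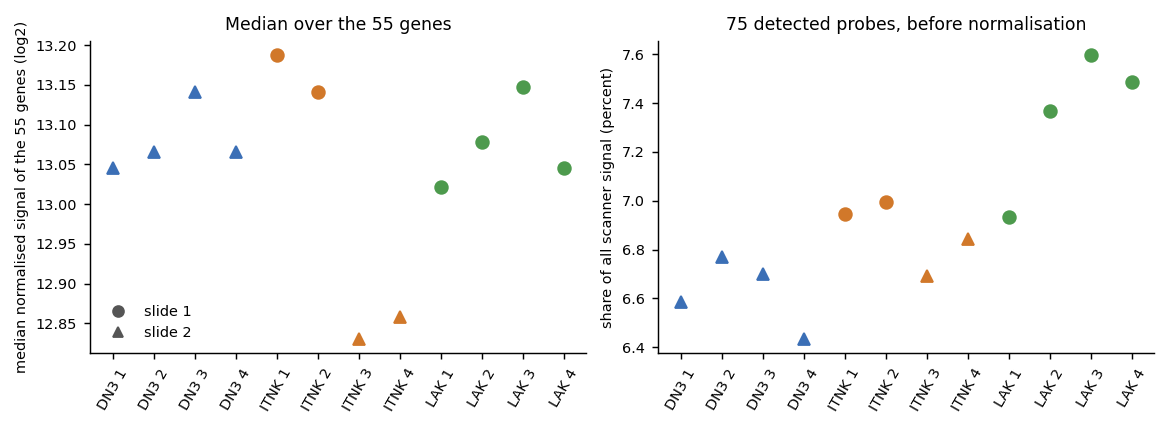
Left, median normalised signal (log2) of the 55 genes on each array; right, share (percent) of all scanner signal taken by their 75 detected probes before normalization, with slide by symbol and group by colour. ITNK 3 and 4 have the lowest medians, 12.83 and 12.86, and 3 of 4 LAK arrays the highest shares, 7.37% to 7.60%.

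Where a member had several probes, its dimmer probes often differed from the brightest one. Of 15 members with at least 2 detected probes, the probes shared 1 sign in 7 when ITNK was set against DN3, in 10 for ITNK and LAK, and in 11 for LAK and DN3, and none had probes that passed in opposite directions. The second probe of Rpl38 was higher by 0.88 in ITNK and 1.30 in LAK than in DN3 where the brightest gave 0.08 and 0.13. For Rps24 the second probe gave 0.61 and 0.95 where the brightest gave -0.09 and 0.10, and for Rps3 0.13 and 0.65 where the brightest gave -0.05 and 0.18. All but the first value of Rps3 passed at an adjusted p under 0.05 over all detected probes. The second probe of Rps19 was detected on all ITNK and LAK arrays and on no DN3 array. Which transcript each probe measures is not in the files, and ribosomal protein genes have many near-identical retrocopies that could share a probe, so values of single probes are uncertain in that respect.

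The wider translation machinery was read from lists in the same fit. Ribosome biogenesis factors that passed were mostly higher in ITNK and LAK than in DN3: of 44 tested, 18 were higher and 4 lower in ITNK than in DN3, 1 and 3 in ITNK against LAK, and 23 and 4 in LAK against DN3, with medians of 0.22, -0.08 and 0.37. The shares that passed, 50%, 9.09% and 61.4%, were near or below the 51.7%, 33.7% and 60.5% of all genes. Within ITNK, both slide 1 arrays were below both slide 2 arrays for 16 of the 44 factors (36.4%, beside 21.6% of all genes). The reverse held for 3 (6.82%, beside 19.3%). The counts of the lists were not taken with the slide block or another scaling. Bop1, which processes the large subunit rRNA, was higher by 0.85 in ITNK and 0.99 in LAK, while Rrp12, an export factor known from yeast, fell by 1.02 in ITNK (difference -1.02). Initiation and elongation factors gave 6 higher and 4 lower of 30 in ITNK against DN3, 0 and 4 in ITNK against LAK, and 9 and 7 in LAK against DN3. Eef1a1 and Eef2, which like the ribosomal proteins carry a terminal oligopyrimidine tract, passed in none, and the 14 tested mRNAs of that class outside the ribosome gave 2 higher and 1 lower, 1 and 1, and 5 and 1. Mitochondrial ribosomal proteins gave 17 and 8 of 72, 8 and 7, and 20 and 13 in the same order, RNA polymerase I and its factors 1 and 2 of 11, 1 and 2, and 3 and 3, and the mTORC1 and S6 kinase list 5 and 7 of 20, 1 and 2, and 4 and 8. Of 4 genes in the Myc list 1 was higher and 1 lower in ITNK than in DN3, 0 and 1 in ITNK against LAK, and 1 and 1 in LAK against DN3, and Myc itself, an activator of ribosome genes, differed by -0.12 in ITNK against DN3 (adjusted p = 0.47). Of the ribosomal proteins whose symbols the rule does not match, Rpl36al was tested: it was 0.42 higher in ITNK than in LAK (adjusted p = 0.0175) and 0.36 lower in LAK than in DN3 (difference -0.36, adjusted p = 0.0217).

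**Figure D5:**
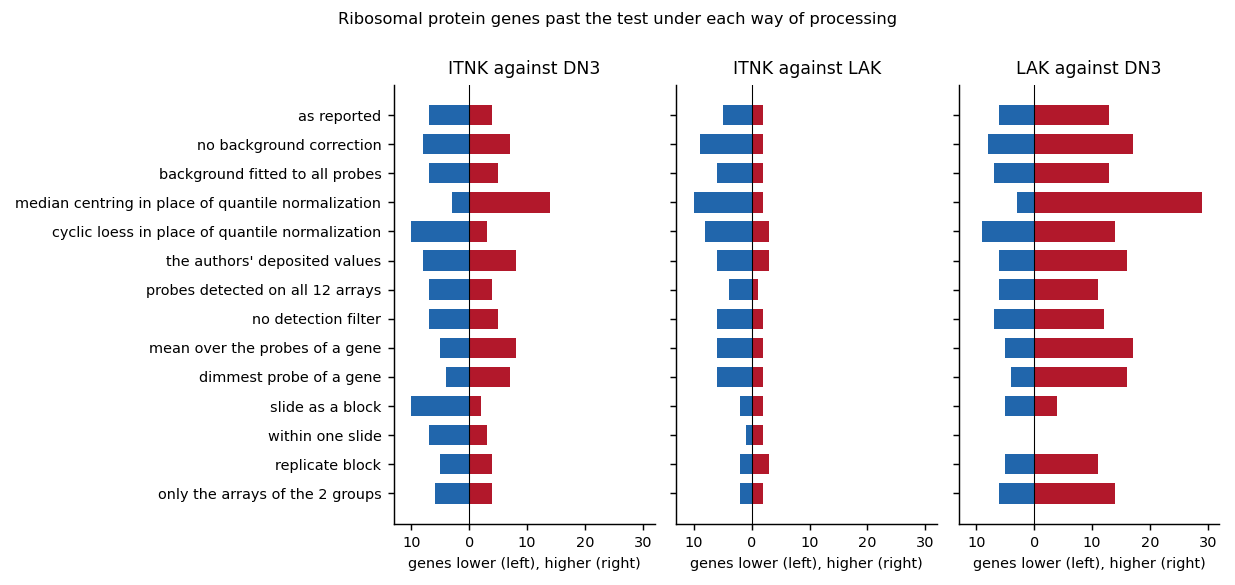
Number of ribosomal protein genes lower (blue, left of 0) and higher (red, right of 0) at an adjusted p under 0.05 under each way of processing, for the 3 comparisons. LAK against DN3 cannot be fitted within 1 slide, and median centring gives its largest count, 29 higher.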

How the data were processed

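The authors deposited a scanner table that holds, per the file headers, a linear intensity for each probe and array with no background subtraction stated, and a detection fraction from 0 to 1, of which 1 minus the value was taken as the detection p-value. They also deposited processed values on a log2 scale, whose method is not given in the sources used here; these served as an alternative. Labels give total RNA, amplified to biotinylated cRNA with the Ambion MessageAmp kit.

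Here the intensities were background-corrected and quantile normalized with neqc (limma 3.58.1, R 4.3.3, offset 16). Probes with a detection p under 0.01 on at least 4 arrays were kept, 13571 of 45274, and the brightest probe stood for each of 8100 genes. Symbols came from the platform annotation, updated by Entrez number. Of probes with values, 34880 had 1 symbol, 18 several and 10376 none. One limma model with 3 groups over 12 arrays gave 2-sided moderated tests, adjusted by Benjamini-Hochberg over all genes. The test was tested on simulated data. The number of arrays limits the precision. No column went unused.

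Members and lists were chosen with earlier results of these data known. Genes named in the text were a role-based list, the 4 largest rises and falls past the threshold in each comparison, paralogue pairs, and further members that passed. Members at the lowest and highest level were not named, since levels of different probes are not comparable. Folds written "at least" set the bright group's mean against the lowest signal of a detected probe on each array of the dim group, or the gene's own value if higher. Promoters came from RefSeq, GRCm38.p6, and no protein sequences were used. Replicate arrays of a group shared under 1% of exact scanner values and were counted singly. Alternatives covered background, scaling, filter, probe choice, slide, replicate number, samples in the fit and each array left out.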

Additional observations from a re-analysis of the deposited data

Results flagged for a closer look

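For 26 named members, and for the members' median and share of signal, 82 groups of 4 arrays were searched for an array that stood apart by Dixon's test. The test found 4, and chance flags about 1 in 20 groups. Rplp2 was at 13.68 on LAK 1, below 13.81 to 13.83 on the other LAK arrays. Rps9 was at 14.28 on LAK 1, above 14.12 to 14.15 on the others. Rps27l was at 12.59 on DN3 3, below 12.79 to 12.82, and its rise in ITNK held without that array. Rps4l was at 4.45 on DN3 1, above 4.37 to 4.38, on arrays that did not detect it.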

How the results depend on the processing

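Calls that held in all settings in which the probe was tested were those of Rpl22 and Rps27l in ITNK against DN3, of Rpl3l, Rps27l and Rps4l in ITNK against LAK, and of Rpl22, Rpl35, Rpl3l, Rpl7l1 and Rps4l in LAK against DN3. The calls of Rpl3l and Rps4l are a description, as each met the detection rule only through the groups where it was high. Members higher in ITNK than in DN3 (4) became 7 without background correction, 14 with median centring, 8 with the authors' values, 8 with the mean of a gene's probes, 7 with the dimmest probe and 2 with slide as a block; those lower (7) became 3 with median centring and 4 with the dimmest probe. Members lower in ITNK than in LAK (5) became 9 without background correction, 10 with median centring, 8 with cyclic loess, 2 with slide as a block, 1 within slide 1, 2 with the replicate block and 2 with only the arrays of both groups; those higher (2) became 1 with probes detected on all 12 arrays. In LAK against DN3, higher members (13) became 29 with median centring and 4 with slide as a block, and lower ones (6) became 3 with median centring. Medians moved in ITNK against DN3 to 0.13 (median centring), and in LAK against DN3 to 0.30 (median centring), 0.10 (mean of probes), 0.10 (dimmest probe) and -0.075 (slide block). The cause was not tested, except that blocks and left-out arrays leave fewer degrees of freedom.

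Reversed values were Rps15 at 0.32 (adjusted p = 0.014) and Rps3 at 0.28 (adjusted p = 0.0433) in ITNK against DN3 with median centring, and Rpl23 by its dimmest probe at 0.11 in ITNK and 0.042 in LAK against DN3. Among differences that missed the threshold both times, 79 changed sign. Leaving out each array in turn gave 3 to 7 higher and 4 to 7 lower in ITNK against DN3 (7 and 4 without DN3 3), 2 to 3 higher and 1 to 7 lower in ITNK against LAK (1 without LAK 4), and 9 to 14 higher and 4 to 7 lower in LAK against DN3, with medians of -0.04 to 0.02, -0.10 to -0.05 and 0.01 to 0.07. Arrays of like number in different groups correlated at -0.34 to 0.21 in their deviations. Pairs of unlike number were not set beside them, so these values cannot decide whether the replicate numbers mark a pairing. The replicate block changed no other count of calls by over 1.5 times. Probes near background, such as those of Rpl22l1, Rpl3l, Rps4l and Rps15a, had smaller differences without background correction.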
